A study of Mus musculus with 4 samples.

Results

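Described here are 10 mouse genes of the epidermal growth factor (EGF) family: the ligand genes Egf, Hbegf, Areg, Ereg, Tgfa and Btc and the receptor genes Egfr, Erbb2, Erbb3 and Erbb4. They were chosen by name, are 10 of the 27998 gene rows of the count matrices, and each matched 1 row in all 4 libraries. The study collected green fluorescent kidney cells from BAC-CluGFP mice, whose transgene reports the injury gene Clu, and put them through 10x Genomics droplet capture with 3′ chemistry. Kidneys were collected 2, 7 or 30 days after ischemia-reperfusion injury (IRI) with 35 min of ischemia, or from untreated animals, and each of these 4 groups is a single library. All 4 groups carried the BAC-CluGFP transgene and were sorted for GFP. How many animals went into a library, and their age, is not stated in the sources used here. GFP in these mice is driven from a transgene carrying Clu, so the cells were sampled through that reporter.

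The ligands of this family are made as membrane-anchored precursors and are released by metalloproteases such as ADAM10 and ADAM17. They bind EGFR or ErbB4, the receptors pair, and signals pass on through RAS and ERK, PI3K and AKT, and STAT3. ErbB2 has no known soluble ligand of its own and works as a partner, and ErbB3, which binds neuregulins, has little kinase activity and also works in pairs. In the kidney Egf is made chiefly in the thick ascending limb and the distal convoluted tubule, is shed into the urine, and promotes magnesium uptake through TRPM6, while EGFR signalling in the proximal tubule takes part in the response to acute injury.

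The deposited matrices held 27230 barcodes, 1930 at day 7 and 6991 to 9286 in each other library, with 49397016 to 98818914 unique molecular identifiers (UMIs) per library, and 23190 cells were kept. Levels are given as UMIs per 1000000 UMIs (CPM) of the summed cells of a type. Intervals are exact 95% intervals for counting error alone. Since no group had a second library, no test was run, and a difference between libraries cannot be told apart from a difference between animals, sorts or captures. In time order (untreated, day 2, day 7, day 30) the shallowest barcode held 2335, 3881, 18362 and 5976 UMIs, and the median mitochondrial share of kept cells was 14.5%, 2.82%, 3.59% and 3.68%. Between 4 and 20 barcodes were shared by any pair of libraries. Cell types were gated on marker genes that did not include the members, and 346, 705, 283 and 1122 cells in time order passed no gate. In all 10 types compared with untreated, the main cluster of the untreated cells was not that of the cells after IRI: it was 1 untreated and 22, 4 and 4 after IRI in the proximal tubule, 27 and then 5 in the thin limb, 29 and then 20 in the distal convoluted tubule, 9 and then 12 in principal and connecting tubule cells, 7 and then 28 in intercalated cells, 27 and then 26 in urothelium, 18 and then 21 in endothelium at days 2 and 30, and 33 and then 35 and 6 in pericytes at those times. A difference within a type may therefore lie between unlike sets of cells. Clu itself, on whose reporter the cells were sorted, stood at 234, 2467, 1373 and 660 CPM in time order, and in thick ascending limb cells at 48.1, 6022, 2137 and 1068 CPM.

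A member was compared where both libraries held at least 50 cells of the type, and counted as measured with at least 20 UMIs in both together and at least 10 CPM in either. It was counted as higher or lower where the CPM differed at least 2-fold and the interval of the ratio excluded 1. At day 2 against untreated, 10 cell types were compared and 54 of 100 pairs of member and cell type were measured, of which 14 were higher and 12 lower. Over all genes measured in the same comparisons 11.7% were higher and 8.74% lower. At day 7 only the proximal tubule, the thin limb and the thick ascending limb could be compared: 5 of 17 measured pairs were higher and 3 lower, beside 23.7% and 9.2% of all genes. At day 30, in 8 cell types, 13 of 50 measured pairs were higher and 8 lower, beside 15.9% and 7.08% of all genes. Egf made up 10 of the 12 lower pairs at day 2 and all of those at days 7 and 30. The split of calls over all genes depended on the scale. Of them 65.0% were higher on CPM and 49.0% after the median log2 ratio of each comparison had been subtracted, both over 21 comparisons. Among cells of 18362 UMIs or more it was 81.5%, over the 4 comparisons that were left. The median log2 ratio over all genes was 0.15, 0.50 and 0.52 in the thick ascending limb and 0.49, 0.73 and 0.68 in the proximal tubule at days 2, 7 and 30.

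Egf, the gene of the EGF precursor, fell in the thick ascending limb and the distal convoluted tubule at every time at which they could be compared. In thick ascending limb cells it had 3703 CPM untreated, 122 CPM at day 2, 119 CPM at day 7 and 468 CPM at day 30, from 18097, 962, 244 and 1944 UMIs. The untreated library stood far above the others, and day 30 stood between it and the earlier times. The ratio to untreated was 0.0328 at day 2 (interval 0.0307 to 0.035), 0.0321 at day 7 (0.0282 to 0.0364) and 0.126 at day 30 (0.121 to 0.132). Day 30 was 3.85-fold above day 2 (3.56 to 4.17) and 3.94-fold above day 7 (3.44 to 4.52), while days 2 and 7 overlapped in their intervals. In the comparison of day 30 with day 2, 3 of 7 measured members were higher and 0 lower, beside 10.8% and 1.9% of all genes, and with day 7 it was 2 and 0 of 7, beside 3.35% and 1.25%. With the highest cell of each library left out, the log2 ratio at day 30 was -3.09, beside -2.98 with it.

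In distal convoluted tubule cells Egf had 1635 CPM in 188 untreated cells, 69.5 CPM in 263 cells at day 2, 18.9 CPM in 32 cells at day 7 and 672 CPM in 49 cells at day 30. The day 2 ratio was 0.0425 (0.0376 to 0.0479), and the last 2 times had too few cells to be compared. Together the thick ascending limb and the distal convoluted tubule held 72.2% and 10.0% of all Egf UMIs untreated, 62.6% and 19.6% at day 2, and 66.4% and 12.0% at day 30. They made up 7.91% and 2.87% of untreated cells, 6.35% and 3.15% at day 2, and 5.84% and 0.77% at day 30.

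The sequence before the annotated start is shown for Egf, the member that fell most often, and for Areg, whose level stood near 0 in untreated proximal tubule cells and is described further on. Both are RefSeq windows of build GRCm38.p6, read 5′ to 3′ on the gene's own strand and ending at the base before the start. Capitals mark the letters TGACGTCA, the cAMP response element, and TATAAAA, the TATA box, searched on both strands together with the AP-1 letters TGANTCA.
Egf, chr3:129755323-129755572, minus strand: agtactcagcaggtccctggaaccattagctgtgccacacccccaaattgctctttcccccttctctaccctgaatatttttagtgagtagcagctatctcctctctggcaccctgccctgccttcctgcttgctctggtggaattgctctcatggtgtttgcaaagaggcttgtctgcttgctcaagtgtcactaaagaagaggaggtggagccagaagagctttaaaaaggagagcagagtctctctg
Areg, chr5:91139349-91139598, plus strand: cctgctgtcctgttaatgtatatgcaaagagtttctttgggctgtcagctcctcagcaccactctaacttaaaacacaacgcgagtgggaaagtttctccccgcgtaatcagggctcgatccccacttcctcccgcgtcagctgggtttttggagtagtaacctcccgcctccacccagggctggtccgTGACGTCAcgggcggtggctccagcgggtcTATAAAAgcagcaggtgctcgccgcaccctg
In Areg the first base of TGACGTCA lies 61 bases and that of TATAAAA 31 bases before the start. The search covered the whole RefSeq windows, which run from 250 bases before the start to 50 after it and so are longer than the stretches printed. Of 32851 such mouse windows 1.79% hold TGACGTCA, 7.81% TGANTCA and 5.48% TATAAAA. The AP-1 letters were not found in the Areg window, and none of the 3 was found in the Egf window above, in a second Egf window, or in the windows of Tgfa, Btc, Egfr, Erbb2 and Erbb4.

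The cells differed in how Egf was spread among them. Of 518 untreated thick ascending limb cells, 6.76% had no Egf UMI and 394 (76.1%) stood at 1000 CPM or more. At day 2, 48.2% of 531 cells had none and 12 (2.26%) reached 1000 CPM. At day 30, 71.8% of 372 cells had none, more than at day 2, yet 34 cells (9.14%) reached 1000 CPM. The 90th percentile of the cells was 7850, 283, 397 and 835 CPM in time order, so the higher sum at day 30 lay in a minority of cells. After every cell had been thinned to 2000 UMIs, 89.0% of untreated, 16.9% of day 2, 18.1% of day 7 and 16.7% of day 30 cells had an Egf UMI. Before thinning the shares were 93.2%, 51.8%, 54.2% and 28.2%, at median depths of 6959.5, 13714, 22068 and 9177.5 UMIs. As in the other types, the thick ascending limb cells of the libraries lay in different clusters: 99.6% of untreated cells in cluster 14, 91.9% of day 2 cells in cluster 17, and 71.1% and 96.5% of day 7 and day 30 cells in cluster 11.

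**Figure D1:**
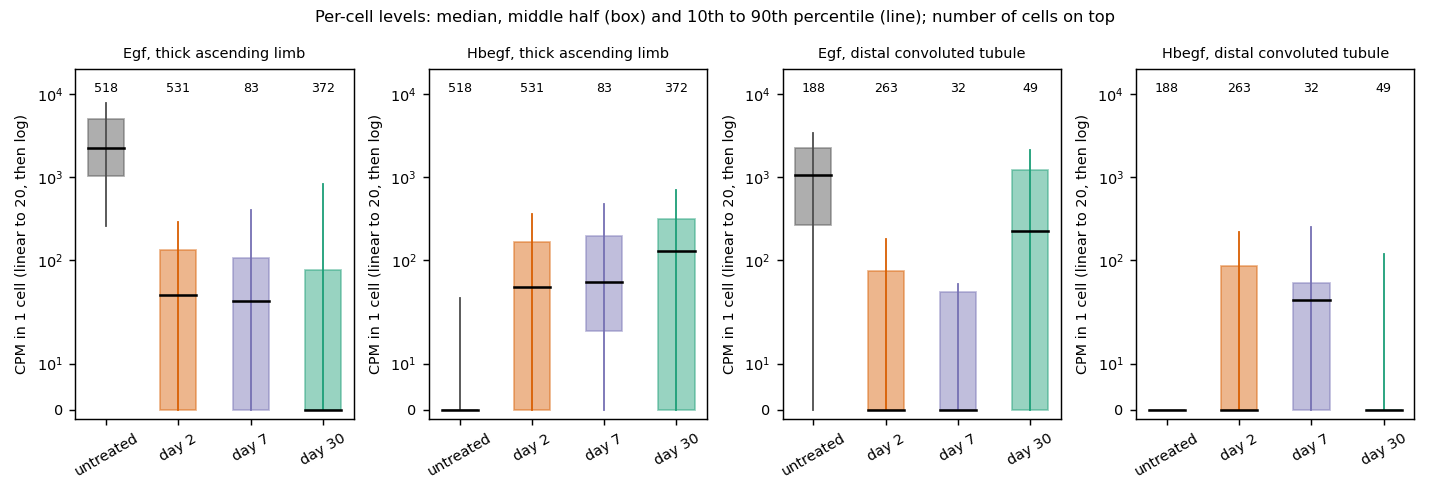
Egf and Hbegf in single cells of the thick ascending limb and distal convoluted tubule, in CPM on an axis that is linear to 20 and logarithmic above. Boxes run from the 25th to the 75th percentile of the cells, black bars are medians, lines run from the 10th to the 90th percentile, and the numbers on top are cells. In the thick ascending limb the Egf median was 0 CPM at day 30, against 2260 CPM untreated, while the Hbegf median was 126 CPM at day 30, against 0 CPM untreated.

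Egf UMIs were also found in cell types that are not known to make it, blood cells included, which sets the background of each library. In the 10 other untreated gates Egf ranged between 38.8 CPM in parietal epithelium and 134 CPM in connecting tubule cells, and 44 untreated macrophages, monocytes or dendritic cells had 58.1 CPM (30.9 to 99.4) from 13 UMIs. In the IRI libraries the same macrophage gate had 1.51, 2.85 and 5.12 CPM at days 2, 7 and 30. Thinned to 2000 UMIs, 15.9% of the untreated macrophages had an Egf UMI, beside 89.0% of untreated thick ascending limb cells, at median depths of 4160.5 and 6959.5 UMIs. Lower Egf in the proximal tubule, thin limb, principal, intercalated, urothelial, endothelial and pericyte gates, where untreated levels lay within the interval of the macrophage level, is not read as a change in those cells.

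Umod, the uromodulin gene of the thick ascending limb and a marker of its gate, gives a scale for this. Egf per Umod UMI was 0.225 in untreated thick ascending limb cells (0.221 to 0.228), 0.0161 at day 2 (0.0151 to 0.0172), 0.0176 at day 7 (0.0154 to 0.020) and 0.104 at day 30 (0.0997 to 0.109). Umod itself had 16480, 7529, 6753 and 4477 CPM there, so day 30, which had the lowest Umod level, had more Egf than days 2 and 7. In the distal convoluted tubule Egf per Umod was 0.649, 0.0889, 0.0162 and 0.681 in time order, the last (0.593 to 0.781) overlapping the first (0.617 to 0.683). There both genes stood lower at day 30, in 49 cells, than untreated: Umod at 986 against 2518 CPM and Egf at 672 against 1635 CPM. The overlap is therefore not a return of the Egf level. A few day 30 values rested on single cells: 69 of the 89 Egf UMIs of fibroblasts came from 1 cell, as did 28 of the 39 of principal cells.

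**Figure D2:**
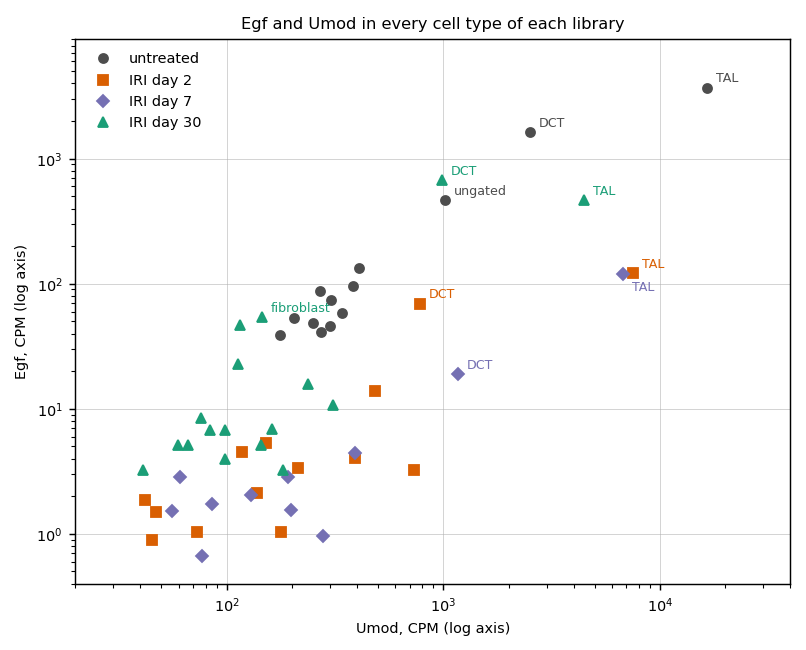
Egf against Umod in CPM, both on log axes, with 1 point per cell type of at least 30 cells and library, cell types with no Egf UMI left out. At days 2 and 7 the thick ascending limb has 7529 and 6753 CPM of Umod and 122 and 119 CPM of Egf, against 16480 CPM of Umod and 3703 CPM of Egf in the untreated library.

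Hbegf, which encodes the heparin-binding ligand of EGFR and ErbB4, was higher after IRI in 5 cell types at day 2, in the proximal tubule and the thick ascending limb at day 7, and in 5 cell types at day 30. In thick ascending limb cells it had 19.6 CPM untreated, 138 CPM at day 2, 182 CPM at day 7 and 268.5 CPM at day 30, from 96, 1096, 373 and 1116 UMIs. All 3 IRI libraries stood above the untreated library, with ratios of 7.04 (5.71 to 8.77), 9.25 (7.37 to 11.7) and 13.7 (11.1 to 17.0). Thinned to 2000 UMIs, 2.9% of untreated cells had an Hbegf UMI, against 18.1%, 16.9% and 30.9% at days 2, 7 and 30. Among macrophages of the same libraries the thinned shares were 2.27% untreated and 0.75%, 3.88% and 3.4% after IRI, so the untreated thick ascending limb share lay near that of the macrophages, and those of the IRI libraries above it. The highest cell held 17 of the 96 untreated UMIs and, among the IRI libraries, the largest share was 43 of the 373 UMIs of day 7.

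In the proximal tubule, with the normal and injured gates joined, Hbegf had 32.1, 140, 128 and 110 CPM in time order. The ratios to untreated were 4.38 (3.75 to 5.09), 3.99 (3.68 to 4.32) and 3.43 (3.12 to 3.77). The injured gate, set by 8 injury markers with at least 1 UMI of Havcr1, Krt20 or Kcnip4, held 8, 22, 687 and 418 cells in time order, and had 135 and 134 CPM of Hbegf at the last 2 times. The remaining proximal tubule cells had 88.8, 77.2 and 67.3 CPM after IRI, against 30.7 CPM untreated, so a higher level was also found outside the injured gate. Within the injured gate Hbegf differed by cluster: it was 292 CPM in the 112 cells of cluster 5 and 105 CPM in the 553 cells of cluster 4 at day 7, and 271 and 111 CPM at day 30. Cluster 5 is also the cluster of 96.9% of day 7 and 94.1% of day 30 thin limb cells, which had 277 and 216 CPM, so its cells in the injured gate sat with those of the thin limb.

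Hbegf also rose in the distal convoluted tubule at day 2, with 85.4 CPM against 8.46 CPM untreated, a ratio of 10.1 (5.84 to 19.2). Intercalated cells had 82.9 CPM at day 2 and 83.1 CPM at day 30, against 13.0 CPM untreated (ratios 6.37 and 6.39). Connecting tubule cells had 65.6 CPM at day 2 against 2.06 CPM untreated, a ratio of 31.8 with a wide interval of 10.4 to 159, since the untreated value rests on 3 UMIs and 5 of the 82 day 2 cells held 83.6% of the UMIs. Principal cells had 106 CPM at day 30, 2.33-fold the untreated 45.6 CPM (1.89 to 2.86), and 74.6 CPM at day 2, which was below 2-fold. Pericytes and smooth muscle had 155 CPM at day 30 against 49.6 CPM untreated, a ratio of 3.11 (2.11 to 4.67). Cluster 6, the main cluster of these day 30 cells with 33.3% of them, also held 74.3% of the day 30 parietal epithelium, which had 199 CPM.

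Other cell types held Hbegf in every library. Thin limb cells had 294 CPM untreated and 323, 277 and 216 CPM at days 2, 7 and 30, and parietal epithelium 159, 164, 235 and 199 CPM in time order. Among types of at least 50 cells, with the proximal tubule gates joined, the highest 8 levels of Hbegf were in the thin limb, the thick ascending limb and the parietal epithelium, and each overlapped its neighbour in the order. Smaller gates reached the same range, with 271.5 CPM in the 22 injured proximal tubule cells of day 2 and 192.5 CPM in the 35 cells of the B cell gate at day 30. The main cluster of both gates was cluster 5, with 54.5% and 37.1% of their cells. It also held most thin limb cells after IRI, so these levels may not be those of the named types. Thin limb cells at days 2, 7 and 30 had ratios of 1.10 (0.912 to 1.32), 0.94 (0.819 to 1.08) and 0.733 (0.631 to 0.853) to untreated, and urothelium 1.17 (0.955 to 1.44) and 1.20 (0.954 to 1.5) at days 2 and 30. Endothelium had 66.4 CPM at day 2 and 143 CPM at day 30, against 119 CPM untreated, all within 2-fold of untreated. Day 30 stood 2.15-fold above day 2 there (1.73 to 2.69), in a comparison in which 3 of 4 measured members were higher and 0 lower (8.22% and 5.36% of all genes). Macrophages, monocytes and dendritic cells, in which Hbegf was the 1 member measured, had 30.4 CPM at day 7 against 5.33 CPM at day 2 (ratio 5.71, 4.71 to 6.94), where 8.08% of all genes were higher and 3.37% lower. The Hbegf level over all cells was also higher, at 131 CPM at day 7 against 48.0 CPM at day 2, and Egf in this gate stood at 2.85 CPM of an all-cell level of 7.89 CPM at day 7, against 1.51 of 17.2 CPM at day 2. The part of free RNA in the macrophage value was not tested. Fibroblasts had 155 CPM at day 7 against 21.1 CPM at day 2 (ratio 7.35, 5.12 to 10.9), of which 22 of the 34 UMIs at day 2 came from 1 cell, without which the day 2 level was 7.53 CPM. In that comparison they had 2 of 4 measured members higher, the other being Areg from 1 cell, and 0 lower, beside 9.43% and 9.33% of all genes.

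**Figure D3:**
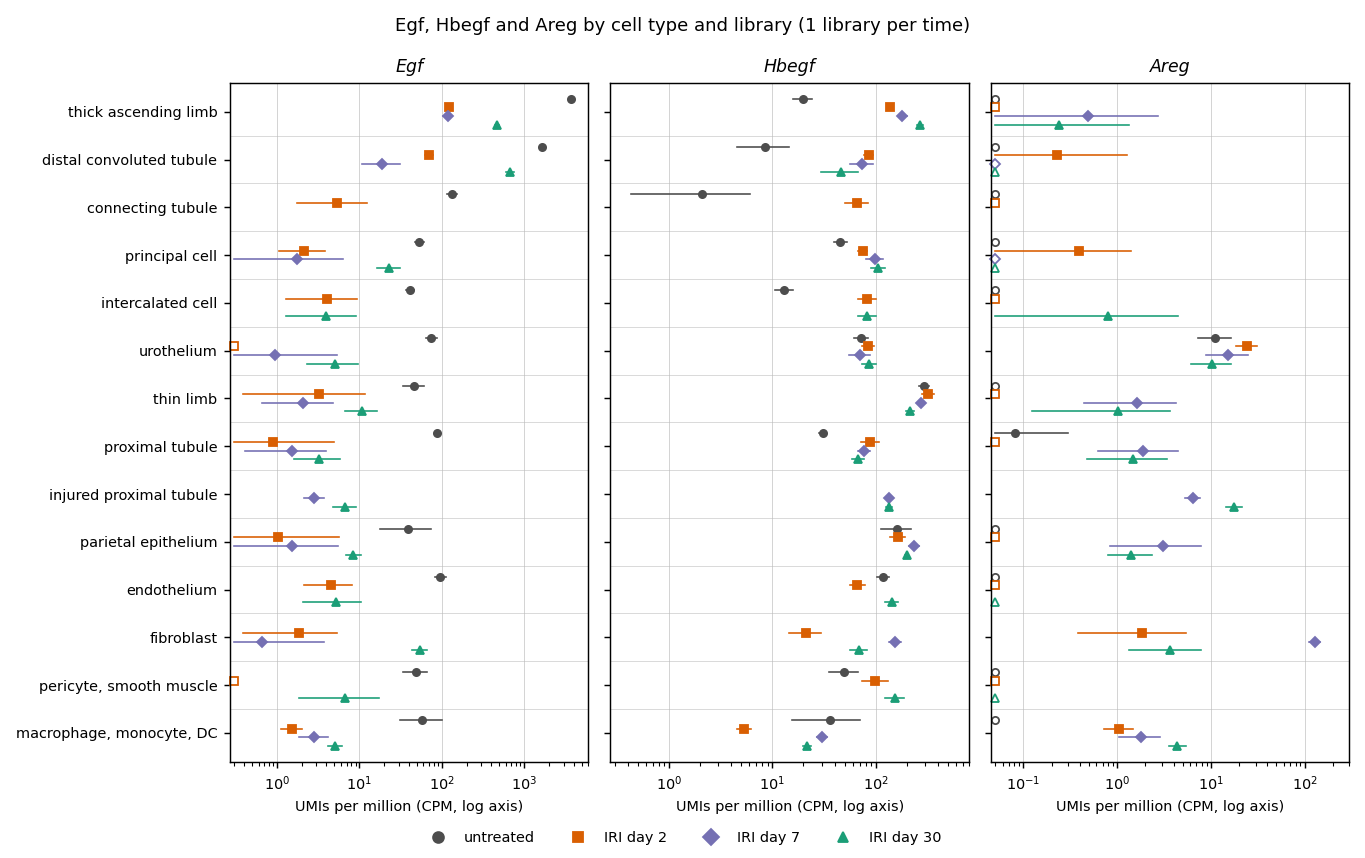
Egf, Hbegf and Areg in each gated cell type of at least 30 cells, in CPM on log axes, 1 marker per library with its exact 95% counting interval. Open markers at the left edge stand for 0 UMIs and intervals are cut at that edge. Egf lies to the left in all 3 IRI libraries and Hbegf to the right in the thick ascending limb, and the day 7 Areg value of fibroblasts, 128 CPM, comes from 1 cell.

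Areg, the gene of amphiregulin, a low-affinity EGFR ligand that is released in injured epithelia, had 29 UMIs in the whole untreated library, 26 of them in urothelium. In the proximal tubule it had 0.0818 CPM untreated, 1.91 CPM at day 2, 5.84 CPM at day 7 and 11.9 CPM at day 30, from 2, 3, 124 and 111 UMIs. The ratio to untreated was 71.4 at day 7 (19.3 to 596) and 145 at day 30 (39.3 to 1214), with wide intervals since the untreated value rests on 2 UMIs. The day 7 level was below the 10 CPM that the count rule asks for, so that only day 30 is among the calls. Day 30 stood 2.04-fold above day 7 (1.56 to 2.65), and Areg was the 1 member of 5 measured that was called between those times (3.61% of all genes higher, 1.17% lower). Nearly all of it lay in the injured gate, where 46 of 687 cells at day 7 and 40 of 418 cells at day 30 held the 119 and 106 UMIs. Within that gate cluster 4 had 7.71 CPM at day 7 and 21.0 CPM at day 30, and cluster 5 had 0.696 and 2.74 CPM, the reverse of the order of Hbegf. In cells of 18362 UMIs or more the day 30 comparison had too few UMIs to be counted, with a log2 ratio of 4.75 beside 7.18 in all cells.

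Urothelium had 24.0 CPM of Areg at day 2 against 11.1 CPM untreated, a ratio of 2.17 (1.35 to 3.57), and 15.3 and 10.3 CPM at days 7 and 30. At day 2, 13 of 154 cells held the 61 UMIs. Fibroblasts at day 7 had 192 Areg UMIs, all in 1 of 64 cells, and none in the rest. Ereg, the gene of epiregulin, had 3, 8, 24 and 26 UMIs in the 4 libraries, with 12 at day 7 and 15 at day 30 in fibroblasts, and was below 10 CPM or 20 UMIs in every comparison.

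Tgfa, which encodes transforming growth factor alpha, was highest in urothelium at days 2, 7 and 30, and parietal epithelium had 34.4 CPM untreated from 8 UMIs. Urothelium had 32.9 CPM untreated and 24.8, 24.9 and 27.4 CPM at days 2, 7 and 30. Those values had overlapping intervals, and the ratios to untreated were 0.756 (0.533 to 1.07) at day 2 and 0.834 (0.569 to 1.21) at day 30. In principal cells it rose to 15.7 CPM at day 2 and 19.3 CPM at day 30, against 4.18 CPM untreated, with ratios of 3.75 (2.23 to 6.65) and 4.62 (2.53 to 8.72). These rest on 81 and 33 UMIs in the IRI libraries against 18 in the untreated one. Thin limb cells had 11.7 CPM at day 30 against 1.96 CPM untreated, a ratio of 5.98 (1.48 to 52.3) from 23 and 2 UMIs and from different clusters. In parietal epithelium it was lower at day 7 (10.0 CPM, ratio 0.443) and at day 30 (6.96 CPM, ratio 0.308) than at day 2 (22.6 CPM). In those comparisons 1 of 6 measured members was higher and 1 lower (6.55% and 7.34% of all genes), and 0 of 5 higher and 1 lower (5.52% and 4.84%).

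Btc, the gene of betacellulin, a ligand of EGFR and ErbB4, had its highest level in principal cells in all 4 libraries. Principal cells had 133 CPM untreated, 55.6 CPM at day 2, 82.8 CPM at day 7 and 73.8 CPM at day 30, from 573, 287, 95 and 126 UMIs, and held 65.0%, 63.8%, 25.7% and 28.4% of all Btc UMIs in time order. The untreated library was above all 3 IRI libraries. The day 2 ratio was 0.418 (0.361 to 0.482), while that of day 30, 0.554 (0.453 to 0.673), was within 2-fold. Averaged over cells the day 2 log2 ratio was -0.95, and with clusters in place of gates -0.89, both just within 2-fold, beside -1.26 on summed counts. The thick ascending limb had 14.2 CPM at day 30 against 6.96 CPM untreated, a ratio of 2.04 (1.32 to 3.21). That call ended under 9 of the alternatives that could be applied to it.

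**Figure D4:**
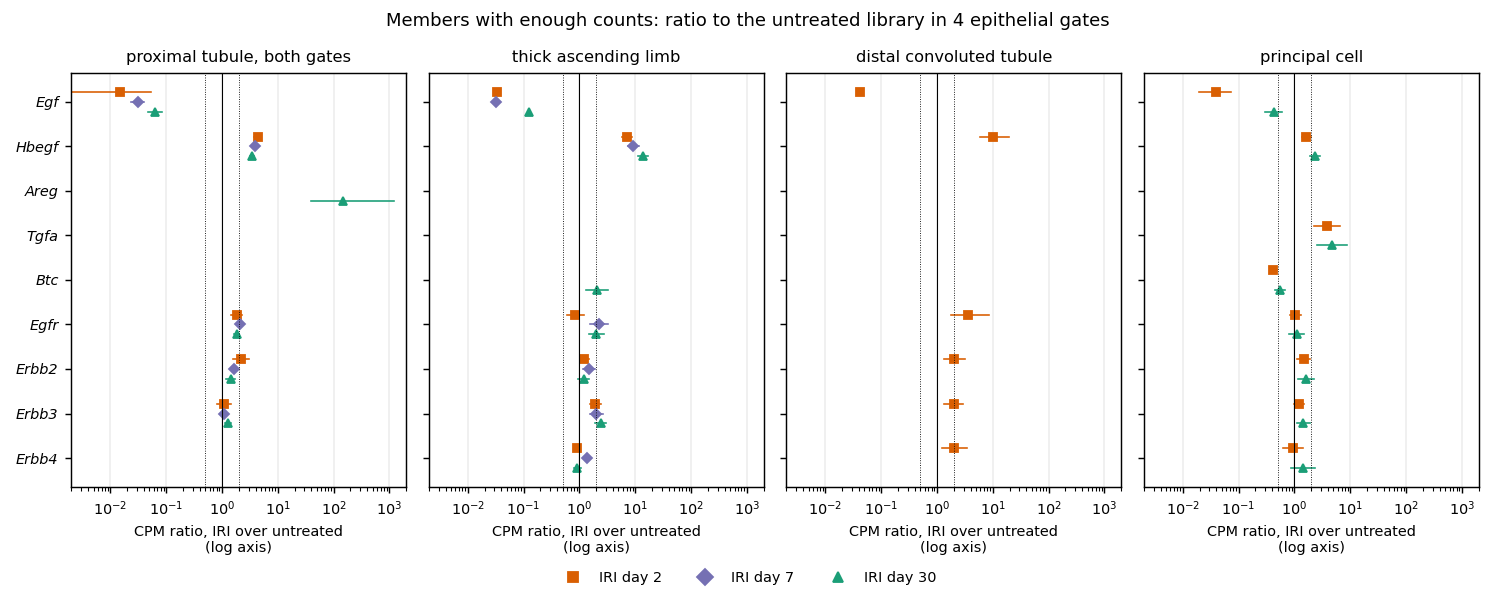
Ratio of CPM, IRI over untreated, for the members that had enough counts in 4 epithelial gates, on a log axis with exact 95% counting intervals cut at the edges. The solid line marks no difference and the dotted lines 2-fold. Egf lies left and Hbegf right of 1 in every panel, and the receptors lie between 0.848 and 3.64. In proximal tubule and principal cells the untreated Egf lay within background, and its ratio is not read as a change.

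Egfr, the receptor that binds all of the ligands above, was higher after IRI in the proximal tubule by about the fold that the count rule asks for. In the proximal tubule it had 28.5 CPM untreated, 52.3 CPM at day 2, 59.6 CPM at day 7 and 51.9 CPM at day 30. All 3 IRI libraries were above the untreated one, with ratios of 1.84 (1.44 to 2.31), 2.09 (1.91 to 2.30) and 1.82 (1.62 to 2.05), of which that of day 7 passed 2-fold. The injured gate had 60.0 CPM at day 7 and 52.8 CPM at day 30, and the remaining proximal tubule cells 56.9 and 50.3 CPM. In the thick ascending limb Egfr had 11.1, 29.2 and 26.2 CPM at days 2, 7 and 30, against 13.1 CPM untreated, with ratios of 0.848 (0.608 to 1.19), 2.23 (1.54 to 3.23) and 2.00 (1.46 to 2.77). Relative to the median gene these 2 later log2 ratios were 0.66 and 0.48, and that of the proximal tubule at day 7 was 0.33, all within 2-fold. Without the highest cell of each library the day 30 log2 ratio in the thick ascending limb was 0.92.

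Egfr was higher at day 2 in the distal convoluted tubule, with 18.9 CPM against 5.20 CPM untreated (ratio 3.64, 1.76 to 8.71). At day 30 it was higher in intercalated cells, with 14.3 CPM against 4.18 CPM untreated (ratio 3.41, 1.82 to 6.19), and in pericytes and smooth muscle, with 37.4 CPM against 7.84 CPM untreated (ratio 4.77, 1.88 to 14.4). The untreated counts behind these were 8, 35 and 6 UMIs. In intercalated cells the untreated level was about the same as 20% of the untreated library mean of Egfr, 4.18 CPM. After that subtraction the intercalated pair was no longer measured. The main cluster of the day 30 pericytes was also that of day 30 parietal epithelium, which had 54.2 CPM of Egfr. Thin limb cells held 49.1 to 75.8 CPM and fibroblasts 40.9 to 71.9 CPM in the libraries that had enough of them. Macrophages, monocytes and dendritic cells had 0.554 CPM at day 2 and 8.35 and 6.49 CPM at days 7 and 30.

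Erbb4, a receptor for Hbegf, Btc and the neuregulins, was highest in the thick ascending limb at every time. There it had 98.6 CPM untreated, 87.6 CPM at day 2, 136 CPM at day 7 and 90.5 CPM at day 30. The ratios, 0.888 (0.790 to 1.00), 1.38 (1.19 to 1.61) and 0.917 (0.799 to 1.05), were all within 2-fold, in the cells in which Egf fell and Hbegf rose. It rose at day 2 in connecting tubule cells, with 22.6 CPM against 3.43 CPM untreated (ratio 6.58, 2.41 to 22.3), and in thin limb cells, with 27.4 CPM against 9.81 CPM untreated (ratio 2.79, 1.21 to 6.83). Those ratios rest on 21 and 17 UMIs at day 2, and that of the thin limb was no longer called without the highest cell. The distal convoluted tubule had 12.4, 24.5, 47.3 and 40.1 CPM in time order, with a day 2 ratio of 1.98 (1.21 to 3.42), just within 2-fold.

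Erbb2, the partner receptor, rose at day 2 in the proximal tubule, with 28.1 CPM against 12.8 CPM untreated (ratio 2.19, 1.56 to 3.01), in the distal convoluted tubule, with 34.4 against 16.9 CPM (ratio 2.03, 1.34 to 3.22), and in connecting tubule cells, with 46.2 against 13.7 CPM (ratio 3.37, 1.94 to 6.04). Relative to the median gene the first 2 were within 2-fold, at log2 ratios of 0.65 and 0.78. In the thick ascending limb it had 33.8, 41.2, 49.7 and 39.9 CPM in time order, with ratios of 1.22, 1.47 and 1.18. Erbb3, a receptor for neuregulins, had 22.7 CPM in the untreated thick ascending limb and 43.6, 45.8 and 54.6 CPM at days 2, 7 and 30. Its ratios were 1.92 (1.54 to 2.40), 2.02 (1.52 to 2.68) and 2.41 (1.91 to 3.05), and relative to the median gene the last 2 log2 ratios were 0.51 and 0.74. Without the highest cell of each library the day 7 log2 ratio was 0.91. In the proximal tubule Erbb3 had 35.1, 35.1 and 41.5 CPM at days 2, 7 and 30, against 31.9 CPM untreated, with a highest ratio of 1.30 (1.15 to 1.47). In connecting tubule cells it rose at day 2, with 34.4 against 15.1 CPM untreated (ratio 2.28, 1.28 to 4.11). Relative to the median gene that log2 ratio was 0.98. In endothelium it was lower, with 3.14 against 15.5 CPM untreated (ratio 0.202, 0.0750 to 0.470) from 7 and 30 UMIs. Erbb3 over all cells stood at 30.8 CPM untreated and 16.5 CPM at day 2. After subtraction of 20% of the library mean the endothelial pair was no longer measured, and the part of free RNA in it was not tested.

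**Figure D5:**
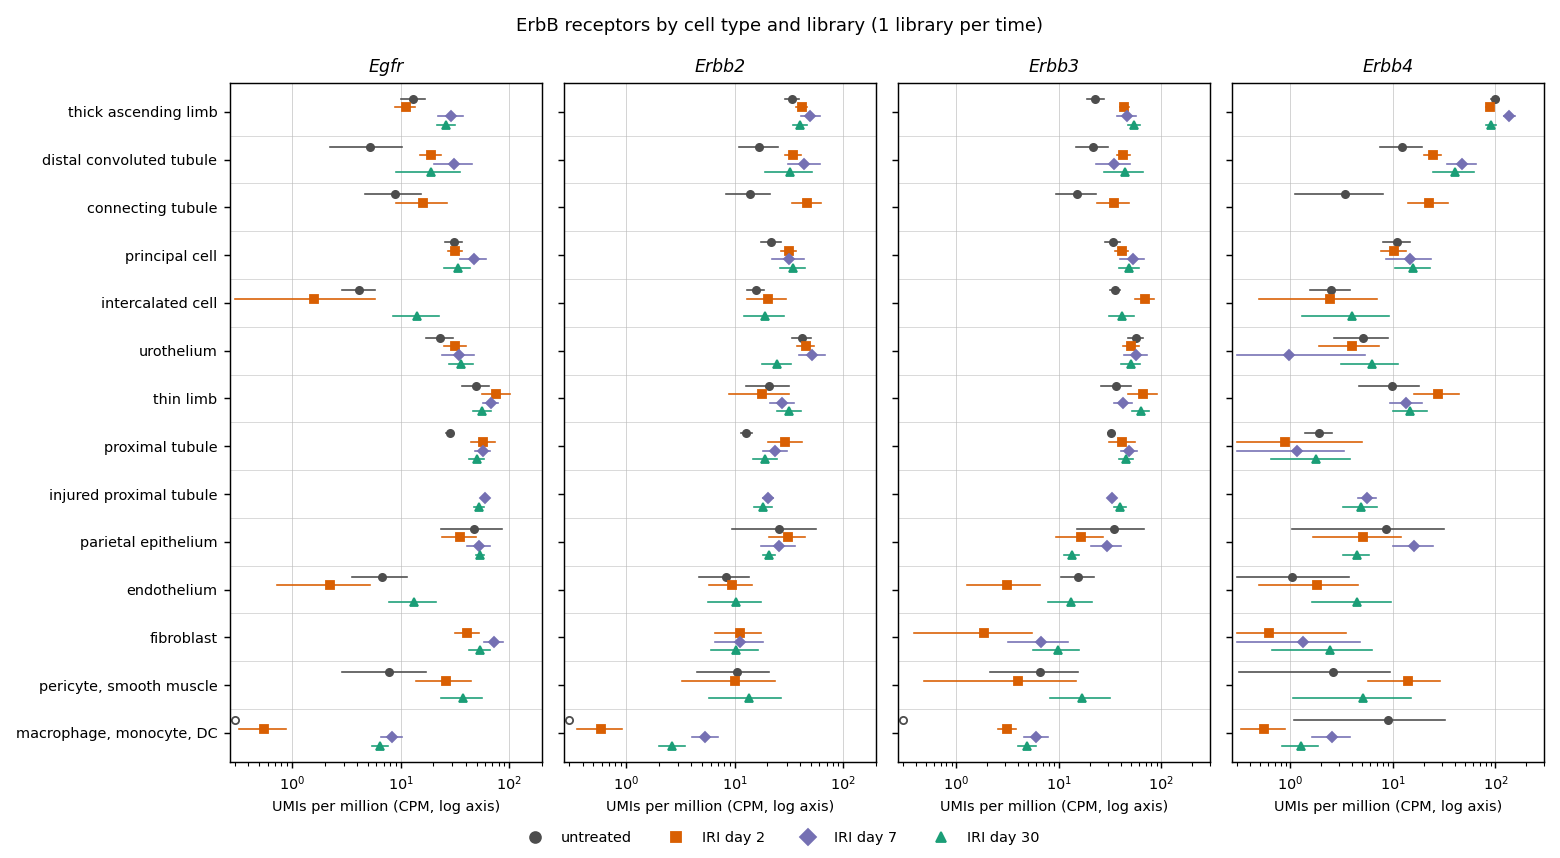
The 4 receptor genes in each gated cell type of at least 30 cells, in CPM on log axes, 1 marker per library with its exact 95% counting interval. Open markers at the left edge stand for 0 UMIs. Erbb4 stands at 87.6 to 136 CPM in the thick ascending limb and below 48 CPM elsewhere, and Egfr lies further right in all 3 IRI libraries than in the untreated library in the proximal tubule.

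By cell type, the thick ascending limb had 1 member higher and 1 lower of 6 measured at day 2 (13.0% and 10.1% of all genes), 3 and 1 of 6 at day 7 (22.7% and 7.44%), and 4 and 1 of 7 at day 30 (26.0% and 7.51%). The proximal tubule had 2 members higher and 1 lower of 5, 5 and 6 measured at days 2, 7 and 30, beside 22.8%, 37.4% and 34.3% of all genes higher and 4.36%, 9.05% and 6.48% lower. At day 2 the distal convoluted tubule had 3 higher and 1 lower of 6 (16.1% and 9.42%) and the connecting tubule 4 and 1 of 6 (14.4% and 9.28%). Principal cells had 1 higher and 2 lower of 8 at day 2 (8.81% and 8.28%) and 2 and 1 of 8 at day 30 (13.5% and 6.11%). Intercalated cells had 1 and 1 of 5 at day 2 (11.2% and 8.28%) and 2 and 1 of 6 at day 30 (12.2% and 5.31%). Thin limb cells had 1 and 1 of 6 at day 2 (7.22% and 10.9%), 0 and 1 of 6 at day 7 (11.2% and 11.1%) and 1 and 1 of 8 at day 30 (11.8% and 8.54%). Urothelium had 1 and 1 of 7 at day 2 (4.64% and 6.59%) and 0 and 1 of 7 at day 30 (7.43% and 5.29%), and endothelium 0 and 2 of 3 (10.3% and 9.74%) and 0 and 1 of 5 (11.2% and 8.83%). Pericytes and smooth muscle had 0 and 1 of 2 at day 2 (8.84% and 10.8%) and 2 and 1 of 3 at day 30 (10.9% and 8.62%). One lower member in each of these comparisons was Egf, which in the gates with untreated levels near background is not read as a change.

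Other genes of the pathway were taken from lists. Of 5 other ligand genes, Epgn and Nrg1 to Nrg4, only Nrg1 was measured in the proximal tubule and the thick ascending limb. Nrg1, which encodes the ErbB3 and ErbB4 ligand neuregulin 1, had 45.8 CPM at day 7 and 36.7 CPM at day 30 in the proximal tubule, against 6.34 CPM untreated (ratios 7.22, 6.09 to 8.61, and 5.79, 4.78 to 7.05). In the thick ascending limb it had 35.1 and 35.9 CPM at days 7 and 30, against 6.14 CPM untreated (ratios 5.71 and 5.84). Of 8 genes of ligand shedding, 5 rose and 1 fell among 7 measured in the thick ascending limb at day 2, 2 rose among 5 at day 7 and 5 rose among 7 at day 30, beside 13.0%, 22.7% and 26.0% of all genes higher. Adam10, the sheddase of Egf and Btc, had 73.7, 92.1 and 95.3 CPM there after IRI, against 32.5 CPM untreated. Timp3, an inhibitor of such proteases on the same list, was the one that fell at day 2, with 203 CPM against 421 CPM untreated, and it was among those that rose at day 30, with 880 CPM. In the proximal tubule Timp3 fell at day 7, with 478 CPM against 1485 CPM untreated.

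Among 16 feedback inhibitors of ErbB signalling, 5 of 12 measured rose and 0 fell in the thick ascending limb at days 2 and 7, and 5 of 11 rose at day 30, where 13.0%, 22.7% and 26.0% of all genes were higher. The list medians were 0.74, 0.77 and 0.94 on the log2 scale, beside 0.15, 0.50 and 0.52 for all genes. Socs3 had 156 CPM at day 2 and 256 CPM at day 30 there, against 5.12 CPM untreated. Errfi1, which encodes the direct EGFR inhibitor MIG6, had 199 and 189 CPM at days 7 and 30 in the proximal tubule, against 340 CPM untreated, within 2-fold. Of 20 adaptors and kinases below the receptors, 5 rose and 0 fell in the thick ascending limb at each time, and Mapk3, Nras, Shc1 and Stat3 did so at all 3, with list medians of 0.39, 0.58 and 0.70. At days 7 and 30 that share was near the 22.7% and 26.0% of all genes. Of 13 target genes of ERK, 5 of 7 measured rose at day 2, 6 of 8 at day 7 and 5 of 7 at day 30 in that segment, beside the same shares of all genes, and Ccnd1 fell each time. Fos had 651, 488 and 2355 CPM there after IRI, against 142 CPM untreated.

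Tissue dissociation also induces such immediate-early genes, and a list of 11 of them is set beside Hbegf. In the thick ascending limb 11 of 11 rose at day 2, 9 of 11 at day 7 and 11 of 11 at day 30, with list medians of 1.57, 1.56 and 3.11 on the log2 scale. Beside these, 13.0%, 22.7% and 26.0% of all genes were higher, with medians of 0.15, 0.50 and 0.52. In the proximal tubule 10, 11 and 11 of 11 rose (22.8%, 37.4% and 34.3% of all genes). At day 2 so did 8 in the distal convoluted tubule (16.1%), 9 in the connecting tubule (14.4%) and 7 in intercalated cells (11.2%), with 8 in intercalated cells at day 30 (12.2%). Hbegf was higher in all of these comparisons. It was also higher at day 30 in principal cells, where 1 of the list rose and 0 fell (13.5% and 6.11% of all genes). The same held in pericytes and smooth muscle, where 1 rose and 2 fell (10.9% and 8.62%). At day 30, 5 of the list rose and 1 fell in thin limb cells (11.8% and 8.54%) and in endothelium (11.2% and 8.83%). In urothelium 4 rose and 0 fell (7.43% and 5.29%). Hbegf was not called in these last gates. At day 2 it was also not called in principal cells, where 0 of the list rose and 2 fell (8.81% and 8.28% of all genes). Nor was it then called in thin limb cells (0 and 1, 7.22% and 10.9%) or endothelium (0 and 3, 10.3% and 9.74%). The same was then true of pericytes and smooth muscle (0 and 9, 8.84% and 10.8%) and urothelium (1 and 0, 4.64% and 6.59%). In thin limb cells at day 7, 0 rose and 3 fell (11.2% and 11.1%), and Hbegf was not called. The part of dissociation in the Hbegf result was not tested. Of 10 genes of magnesium and salt transport, 3 of 8 measured fell in the thick ascending limb at day 2, with Slc12a1 at 1890 CPM against 5859 CPM untreated, and 7 of 9 fell in the distal convoluted tubule, with Slc12a3 at 1149 CPM against 2756 CPM and Trpm6 among them. In these comparisons 10.1% and 9.42% of all genes were lower. The falls of Slc12a1 and Slc12a3 were smaller than that of Egf in the same cells. However, Slc12a1, Umod and Kcnj1, which fell in the thick ascending limb, and Slc12a3 and Trpm6 were also gate markers of these cells. A distal convoluted cell needed at least 3 UMIs of Slc12a3 whatever its depth, and cells of the same marker list with fewer went to the connecting tubule gate. Median depths of distal convoluted cells were 5930, 15723, 24140 and 10032 UMIs in time order. The Slc12a3 level asked for therefore differed between libraries, for every member compared in these gates. Egf was not a marker, so the sizes of the falls are not read against each other.

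Over 45 combinations of cell type and library and 11599 genes, the genes whose log2 level followed a member most closely were Bckdhb (Pearson r 0.872), Wfdc15b and Ppp1r1a for Egf, Agrn (0.858), Tmem57 and Hoxb5 for Hbegf, and Tac2 (0.791), Syt6 and Col7a1 for Areg. They were Styk1 (0.883) for Tgfa, Mcoln3 (0.880) for Btc, Snhg18 (0.823) for Egfr, Ppp2r3a (0.886) for Erbb2, Grb7 (0.963) for Erbb3 and Rps6ka6 (0.895) for Erbb4. Among the members the closest pair was Erbb2 with Erbb3 (0.80), followed by Hbegf with Egfr (0.67), while Egf and Hbegf stood at -0.22. The points share libraries, depth and free RNA, so these values describe likeness only.

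In the annotation Egfr overlaps Egfros and Erbb2 overlaps Mien1, both on the other strand. Egf and Erbb4 each overlap predicted genes, at least 1 of them on the same strand, Erbb3 overlaps Mir6917 on its own strand, and Ereg and Tgfa each overlap a predicted gene on the other strand. How the counting treated strand and overlap is not stated, so reads of such neighbours may be shared. In GRCm38 Egf lies at chr3:129677565-129755316 on the minus strand, Hbegf on chromosome 18, Areg at chr5:91139599-91148432 on the plus strand, and Erbb4 at chr1:68032186-69108059 on the minus strand.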

How the data were processed

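Single cells sorted for GFP from BAC-CluGFP kidneys, 4 libraries of 1 per group, were available as deposited UMI count matrices, which the authors made with Cell Ranger 7.0.1 on mm10 per the submitters' processing notes, while the matrix headers name software 3.0.1. The deposited counts are raw whole UMIs per gene and barcode, and no GFP row was among them. The annotation release, barcode rule and strand setting are not stated in the sources used here.

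Barcodes with fewer than 500 UMIs or 300 genes, over 50% mitochondrial UMIs or called as doublets were left out. The doublet caller marked 1 cell of the untreated library, where it is taken not to have worked, and 628, 10 and 581 cells in the others. Cells were gated on 18 marker lists (153 of 155 markers found) after subtraction of 20% of the library mean, with a minimum score of 0.15 and margin of 0.05, and 2136 cells lay within 0.02 of a limit. In every gate, over all libraries together, its own markers outnumbered those of any other type among the 10 most enriched genes. The cells were chosen by these same markers, so this does not test the gates and does not speak for any single library. UMIs were summed per type and library and scaled to 1000000. Ratios have exact binomial and levels exact Poisson intervals, shares exact Clopper-Pearson ones, at 95%, for counting error only. No test could be run on 1 library per group. Calls needed 20 UMIs in both libraries together, 10 CPM in either, 50 cells in each and a 2-fold ratio whose interval excludes 1. Of the steps, only the comparison of summed counts was run on simulated counts. These were drawn with the Poisson error that the intervals assume, so uneven spread among cells was not covered. Filtering, doublet calling, gating and thinning were not tested in this way.

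The members, the 7 gene lists and the rules were chosen with earlier results of these data known. All 10 members are named, with genes of the lists as examples, and the 3 closest genes per member over cell types of at least 50 cells, on log2 of CPM plus 10. Promoter windows are from the RefSeq table of GRCm38.p6 and gene positions from GENCODE vM21. Python 3.11.15, numpy 2.4.6, scipy 1.17.1, pandas 2.3.3, scanpy 1.11.5, leidenalg 0.10.2, igraph 0.11.9 and matplotlib 3.10.9 were used. Of 14 alternatives, 1 was chosen after the data had been seen.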

Additional observations from a re-analysis of the deposited data

Results flagged for a closer look

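Erbb3 moved in opposite directions in a pair of cell types at day 2. In connecting tubule cells it was higher, with a log2 ratio of 1.19 to untreated, and in endothelium it was lower, with a log2 ratio of -2.31. The difference between these ratios was not tested, since each rests on 1 library per group, and the endothelial value rests on 7 UMIs at day 2 and 30 UMIs untreated. After subtraction of 20% of the library mean the endothelial pair was no longer measured.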

How the results depend on the processing

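Of 55 called pairs, 55 kept their call without a filter on CPM and at 1.5-fold, 54 with called doublets kept in, 51 at a mitochondrial limit of 20%, 48 with mitochondrial genes out of the denominator, 48 as a mean over cells, 46 after the median log2 ratio had been subtracted, 41 at 3-fold, 37 after subtraction of 20% of the library mean, 36 of 41 with clusters in place of gates, 29 at 50 CPM or more, 18 of 18 in types of 200 cells or more, and 11 of 12 in cells of 18362 UMIs or more. At day 2, where 14 pairs were higher and 12 lower, the higher pairs numbered 2 at the common UMI floor, 5 at 50 CPM or more, 23 at 1.5-fold, 9 at 3-fold, 8 with clusters and 2 in types of 200 cells, and the lower pairs 1 at the floor, 4 after subtraction and 5 in types of 200 cells. At day 7, where 5 were higher and 3 lower, the higher pairs numbered 3 at the mitochondrial limit of 20%, 2 without mitochondrial genes in the denominator, 2 after the median had been subtracted, 2 as a mean over cells, 9 without the CPM filter, 3 at 50 CPM or more, 2 at 3-fold and 2 in types of 200 cells, and the lower pairs 1 after subtraction and 1 in types of 200 cells. At day 30, where 13 were higher and 8 lower, the higher pairs numbered 2 at the floor, 6 at 50 CPM or more, 8 with clusters and 6 in types of 200 cells, and the lower pairs 1 at the floor, 1 after subtraction, 5 at 50 CPM or more and 2 in types of 200 cells. The floor and the size limit left fewer cells or cell types to compare. After subtraction of 20% of the library mean 10 log2 ratios of Egf changed sign, all in gates whose whole untreated level was below the 92.8 CPM subtracted there, so that these changes and the lost calls in those gates follow from the subtraction itself: 3.96, 3.17 and 1.39 in the proximal tubule at days 2, 7 and 30, 0.72 in the thin limb at day 2, 4.35 in principal cells at day 30, 2.75 and 2.73 in intercalated cells at days 2 and 30, 0.42 in urothelium at day 30, and 0.62 and 0.38 in pericytes at days 2 and 30. An alternative chosen after seeing the data left out the highest cell of each gene, type and library and kept 51 calls. It ended those of Erbb4 in the thin limb at day 2, Erbb3 in the thick ascending limb at day 7, and Btc and Egfr there at day 30. No paired analysis was possible because each group has 1 library.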

Other observations

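Nrg1 was also found outside the tubule gates named above: parietal epithelium had 32.9 CPM at day 2, 40.9 CPM at day 7 and 93.1 CPM at day 30. Over all kept cells Nrg1 stood at 5.22 CPM untreated and 5.36, 36.9 and 30.5 CPM at days 2, 7 and 30. Neutrophils, with 2625 cells at day 2 and 12 untreated, held 61 of the 200 Areg UMIs of the day 2 library, at 3.66 CPM.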
